A study of Mus musculus with 3 samples.

Results

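Treatment with siRNAs against Wdr5 was followed in 3 libraries (siWdr5, replicates 1 to 3), chosen by their column names among the 129 libraries of the count table, 127 of which were analysed. Each was compared with the 3 libraries of cells given a non-targeting siRNA (nt) and, as a second control, with 5 libraries of mock-transfected cells (Mock). Mock libraries of the same replicate number share a column name, and whether they are separate transfections is not given in the sources used here. All were primary mouse embryonic fibroblasts of the BL6 strain, wild-type in genotype, that carried a doxycycline-inducible lentiviral cassette of Oct4, Sox2, Klf4 and c-Myc together with rtTA. Cells given siRNA received 40 nM of a pool, and transfected cells were re-plated 24 h later, and were kept until day 6 in medium with 2 ug/mL doxycycline, 3 uM of the GSK3 inhibitor Chiron, 0.25 uM of an ALK5 inhibitor (a block of TGF-beta receptor signalling), 50 ug/mL ascorbic acid and LIF. For context, 95 libraries held siRNAs against 32 other genes, and 21 came from untransfected cells collected on each day from day 0 to day 6. Both controls and the siWdr5 cells carried the cassette and the inhibitors, so that siWdr5 was compared with cells that were under reprogramming too. Replicates were sequenced as 3 pools, 1 per replicate number, and the study describes 3 transfections for each siRNA. Whether the cells came from separate preparations is not given in the sources used here, so p-values measure the spread between these libraries.

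WDR5 is a WD-repeat protein that binds histone H3 and is a shared subunit of the MLL and SET1 complexes, which methylate lysine 4 of histone H3 at active genes. It is also found in the NSL acetyltransferase complex and binds MYC. Fibroblasts lay down an extracellular matrix rich in collagens, and during early reprogramming they lose mesenchymal genes while epithelial genes come up, a change known as the mesenchymal-to-epithelial transition. MYC, 1 of the reprogramming factors, is best known for driving ribosome production, translation and metabolism.

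The pool against Wdr5 is described as 3 siRNAs per gene, and the sequences of 2 were found in the sources used here. Both are shown because they fix where the transcript should be cut. They are given 5′ to 3′, with the seed of the guide strand (bases 2 to 8) in capitals.
siRNA 1 guide: cAUAGUUUggcuuaacuggtg
siRNA 1 passenger: ccaguuaagccaaacuaugtt
siRNA 2 guide: cACGGUUGaaaugaacggctg
siRNA 2 passenger: gccguucauuucaaccgugtt
The first matched exon 3 of Wdr5 at chr2:27519355-27519373 (GRCm38, + strand) and the second spanned the junction of exons 7 and 8, between chr2:27520909-27525121. Both sites were in coding sequence, 2577 and 2139 bases from the 3′ end of a transcript of 2890 bases. Each was held by 2 of the 4 annotated Wdr5 transcripts.

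The target itself was hardly counted. Wdr5 had 2, 3 and 2 counts in the siWdr5 libraries and 2, 3 and 4 counts in the nt libraries. The 7 counts with siWdr5 compare with 7.69 expected if the gene had kept the share it had in the remaining transfected libraries, pool by pool. The ratio was 0.910 (95% interval from counting, 0.366 to 1.88). Its level in siWdr5 and nt libraries was not distinguishable, and the interval is too wide to check the knockdown at this depth. Brca1, the partner of BARD1 in DNA repair, had 1 count against 5.39 expected (ratio 0.185, 0.00469 to 1.03). Bard1 had 1 count against 1.30 expected (ratio 0.770, 0.0195 to 4.29). None of the 3 genes passed the filter on low counts, and such intervals cover counting error only.

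Depth set which genes could be read. The siWdr5 libraries held 79094 to 118614 counts, the nt libraries 75100 to 143156 and the Mock libraries 38925 to 83089, while all 127 ranged from 29656 to 235292. Of the genes in the table, 3013 had enough counts to be tested, and these took 82.8 to 83.6% of the counts with siWdr5 and 85.8 to 86.9% with nt. Mitochondrially encoded transcripts made up 21 to 23.6% of counts with siWdr5 and 22.8 to 26.3% with nt. Levels are given in CPM, a gene's counts brought to a common total of counts in tested genes after TMM scaling, which aligns libraries on the bulk of their genes. Because RNA was taken from whole cultures, fewer cells of a type and less RNA per cell cannot be told apart.

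The siWdr5 libraries differed from nt in a large share of the genes that could be read. By edgeR's quasi-likelihood test with Benjamini-Hochberg adjustment over all 3013 genes (a gene is called where its adjusted p is under 0.05), 821 genes (27.2%) were called between siWdr5 and nt. Of these, 367 (12.2% of tested genes) were higher and 454 (15.1%) lower, the median log2 fold change over all tested genes was 0.00, and 1166 had an unadjusted p under 0.05. In 780 of the 821 the difference had the same sign in all 3 replicates, and in 687 the 3 siWdr5 libraries did not overlap the 3 nt libraries, against 1060 (35.2%) of all tested genes. Against Mock, 352 genes (11.7%) were higher and 467 (15.5%) lower, and of 1153 genes (38.3%) called against the mean of the other siRNAs 631 (20.9%) were higher and 522 (17.3%) lower. These 3 comparisons share the siWdr5 libraries and are not independent of each other. Over 48 gene groups, siWdr5 had the highest summed level of the 35 transfected conditions in 17 and the lowest in 10, all after TMM scaling. In siWdr5 against nt, leaving out replicate 3, the most deeply sequenced, left 321 genes called. With the size factors of DESeq2 (RLE) in place of TMM the split turned to 490 higher and 315 lower (60.9% higher against 44.7%), since all fold changes then moved up by 0.17 on the log2 scale. In the same way, siWdr5 against Mock gave 459 higher and 394 lower, and siWdr5 against the other siRNAs 809 higher and 410 lower.

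**Figure D1:**
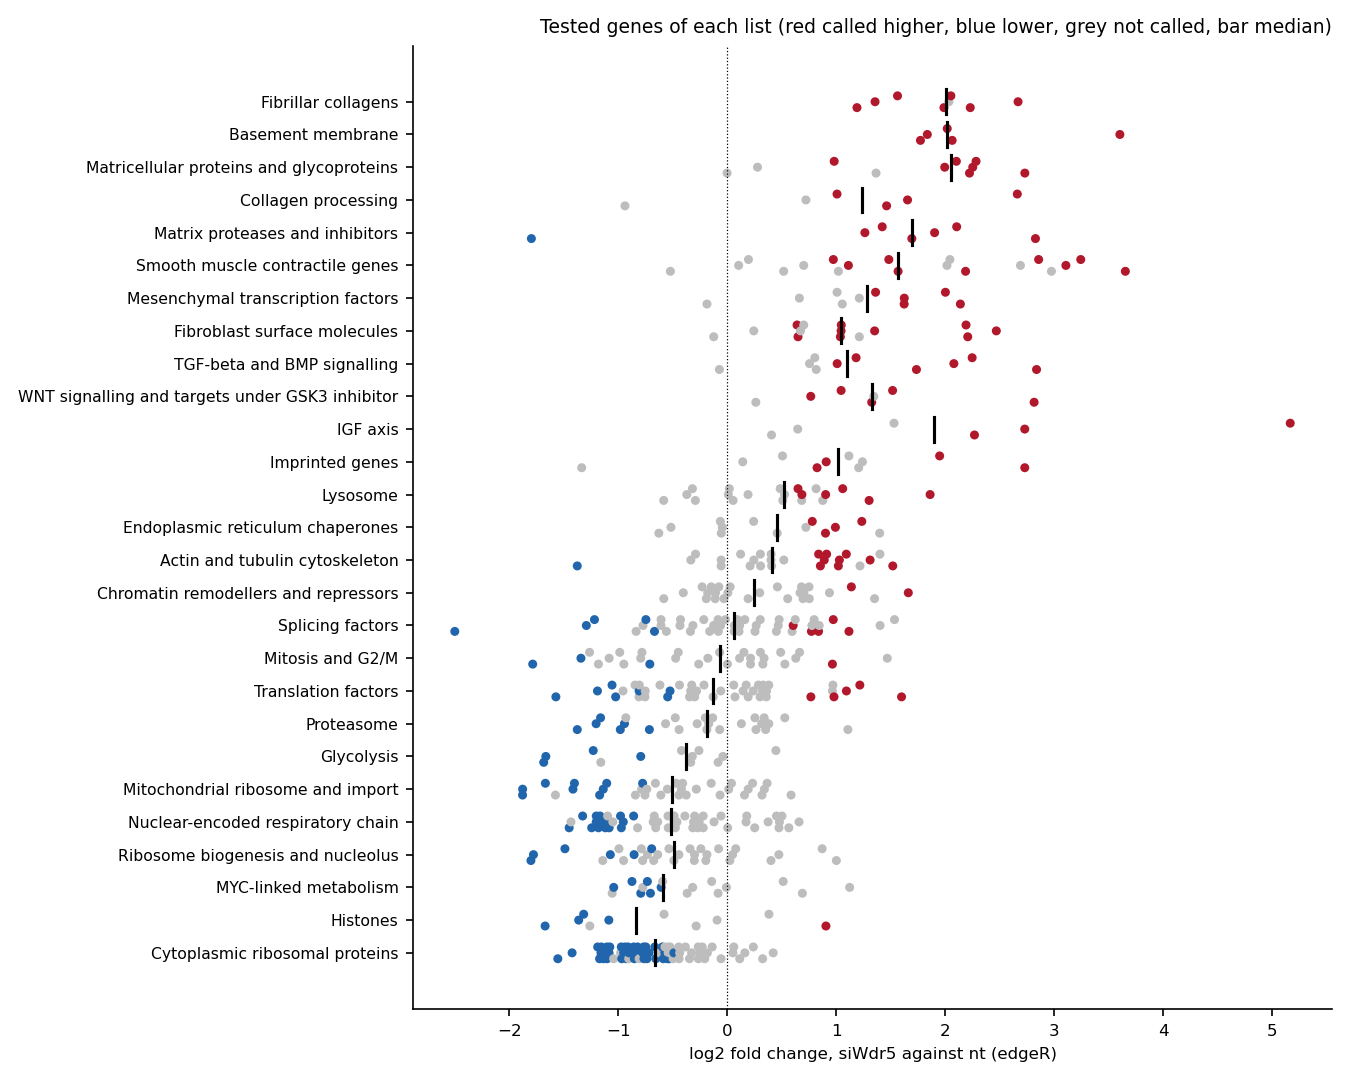
Log2 fold change of siWdr5 against nt (x axis) for the tested genes of 27 gene groups (rows), with the median of each group as a black bar. Points are genes, red where called higher, blue where called lower and grey where not called. Matrix, contractile and mesenchymal groups lie to the right of 0, with medians of 2.01 for fibrillar collagens and 1.57 for contractile genes, and the ribosomal proteins to the left, with a median of -0.67.

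The 12 largest rises were taken among called genes with at least 100 CPM in the higher group and 5 counts in each group. Genes of lower count, such as Myl9 (fitted log2 fold change 3.65, 1 count with nt), are given with their groups. Among the 12 were genes of secreted, membrane and matrix proteins. Sfrp1, a secreted antagonist of WNT ligands (chr8:23411502-23449632, + strand), was at 1334, 1606 and 1424 CPM with siWdr5 and at 183, 209 and 212 CPM with nt (log2 fold change 2.82 ± 0.25, adjusted p = 4.49e-21). Thbs1, thrombospondin-1 (chr2:118111876-118127133, + strand), was at 1426, 1834 and 1557 CPM against 366, 269 and 147 CPM (log2 fold change 2.73 ± 0.24, adjusted p = 4.49e-21). Plpp3, a lipid phosphatase of the plasma membrane (chr4:105157347-105232764, + strand), was at 898, 881 and 949 CPM against 117, 105 and 163 CPM (log2 fold change 2.75 ± 0.27, adjusted p = 2.75e-17). In all 3 genes every siWdr5 library lay above every nt and every Mock library, with Mock ranging over 77.4 to 309 CPM for Sfrp1 and 259 to 516 CPM for Thbs1. The matrix glycoprotein Fbln2 (fibulin-2) was at 211, 369.6 and 342 CPM against 33.3, 15 and 24.5 CPM (log2 fold change 3.60 ± 0.51, adjusted p = 1.07e-09) and rested on 6 counts in the nt libraries. Igf2, a fetal growth factor, was at 343, 682 and 683 CPM against 99.9, 89.7 and 73.5 CPM (log2 fold change 2.73 ± 0.34, adjusted p = 5.25e-12). Ptn, the growth factor pleiotrophin, was at 357, 369.6 and 218 CPM against 33.3, 89.7 and 24.5 CPM (log2 fold change 2.73 ± 0.47, adjusted p = 9.43e-07). These groups did not overlap either, although the lowest siWdr5 library was well under the other 2 for Fbln2, Igf2 and Ptn.

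The rest of the 12 largest rises included the gp130 cytokine receptor Il6st (log2 fold change 2.92 ± 0.66), the contractile regulator Cnn2 (2.86 ± 0.56) and the matrix protease inhibitor Timp3 (2.83 ± 0.39). The transcription factor Zbtb20 rose by 3.40 ± 0.54, Ttc28 by 3.06 ± 0.59 and Abi3bp, a matrix-associated protein, by 2.72 ± 0.61. All 12 were also called against Mock and against the other siRNAs, and each stayed called when any 1 replicate was left out. In each of the 12, siWdr5 had the highest mean of the 35 transfected conditions. The 12 were picked from these same libraries by the size of a called rise, its sign in each replicate and its direction against Mock. Rank, separation and calls are therefore no independent support. Some, such as Il6st (145, 185 and 161 CPM with siWdr5, highest mean of another siRNA 72.2 CPM), may have passed the filter through siWdr5 itself. Igf2 and Zbtb20 overlap the annotated genes Gm49394 and Mir568 on the same strand. Timp3, Thbs1, Igf2 and Zbtb20 lie opposite Syn3, Gm29233, Igf2os and Gm9968, so that reads could not be told apart if strand was not used in counting. Timp3 and Igf2 also have 1 near-identical copy each.

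By the same rule, the largest falls were in genes of several kinds. Bnip3, a mitochondrial protein of mitophagy induced at low oxygen (chr7:138890836-138909519, - strand), was at 92.5, 128 and 47.5 CPM with siWdr5 and at 616, 688 and 457 CPM with nt (log2 fold change -2.74 ± 0.34, adjusted p = 4.88e-12). Hat1, a histone acetyltransferase for newly made H4 (chr2:71388958-71441622, + strand), was at 66, 85.3 and 66.4 CPM against 349.7, 239 and 278 CPM (log2 fold change -1.97 ± 0.38, adjusted p = 1.12e-05). Ptgr1, prostaglandin reductase 1 (chr4:58965439-58987119, - strand), was at 106, 85.3 and 66.4 CPM against 299.8, 329 and 515 CPM (log2 fold change -2.23 ± 0.37, adjusted p = 3.02e-07). For each the siWdr5 libraries lay under all nt and all Mock libraries. Bnip3 has 2 near-identical copies and lies opposite Gm45507, so part of its reads could belong to these. The core spliceosome protein Snrpe was at 13.2, 28.4 and 38 CPM against 183, 105 and 196 CPM (log2 fold change -2.50 ± 0.54, adjusted p = 0.000102), and the splicing factor Prpf38a at 79.2, 71.1 and 19 CPM against 199.8, 284 and 155 CPM (log2 fold change -1.93 ± 0.46, adjusted p = 0.000516). The angiotensin receptor Agtr2 was at 66, 0 and 28.5 CPM against 183, 165 and 147 CPM (log2 fold change -2.28 ± 0.61, adjusted p = 0.00206). Again the groups did not overlap with nt, and 1 siWdr5 library had no Agtr2 count.

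The other 6 of the 12 largest falls were Nup43 of the nuclear pore (-2.37 ± 0.65), the dCTP hydrolase Dctpp1 (-2.27 ± 0.60), Idi1 of isoprenoid synthesis (-2.08 ± 0.53), Esco2 of sister chromatid cohesion (-1.99 ± 0.63), the hypoxia-induced Higd1a (-1.94 ± 0.54) and Mrps22 of the mitochondrial ribosome (-1.88 ± 0.64). Their siWdr5 counts were 5 to 10 in all. The call was lost for Mrps22 whichever replicate was left out (adjusted p up to 0.114), for Esco2 without replicate 2 or 3 (up to 0.114) and for Nup43 without replicate 1 (0.0604). Against Mock, Higd1a (adjusted p = 0.0881) and Dctpp1 (adjusted p = 0.208) were not called.

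**Figure D2:**
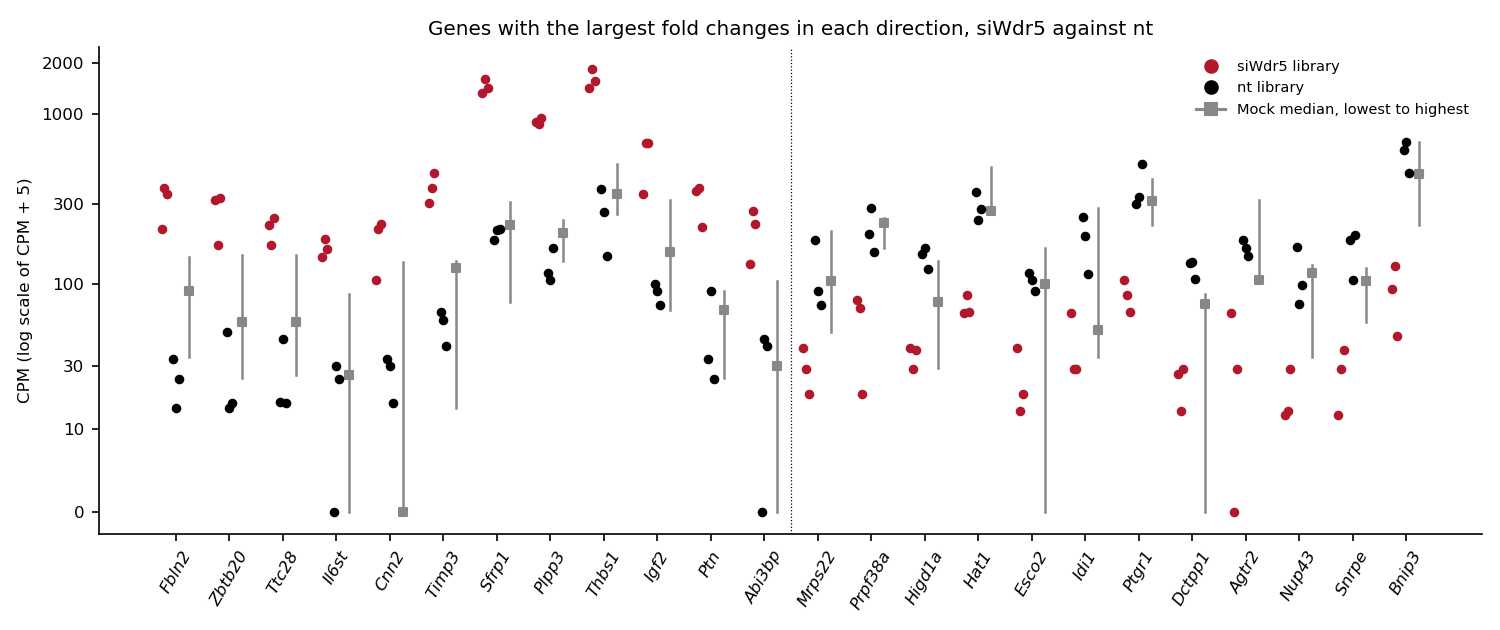
Level of the 12 genes with the largest rises (left of the dotted line) and the 12 with the largest falls (right) in single libraries, in CPM on a log scale of CPM + 5. Red points are siWdr5 libraries, black points nt libraries, and grey squares the Mock median with a line from the lowest to the highest Mock library. The siWdr5 points lie above the nt points on the left and below them on the right for all 24 genes.

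Most tested extracellular matrix genes were called higher, in some lists more than in others, against 12.2% of all tested genes. Of the fibrillar and associated collagens, which build the load-bearing fibres of connective tissue, 8 of 14 were tested and 7 rose, with a median log2 fold change of 2.01. Col1a1, the main chain of type I collagen (chr11:94936224-94953042, + strand), was at 964, 1023 and 1177 CPM with siWdr5 and at 167, 209 and 139 CPM with nt (log2 fold change 2.67 ± 0.27, adjusted p = 3.5e-17). Its partner chain Col1a2 was at 1175, 1407 and 1309.9 CPM against 349.7, 284 and 310.4 CPM (log2 fold change 2.05 ± 0.23, adjusted p = 2.6e-14). Both had no overlap with nt or Mock. The fibril-associated Col12a1 was at 291, 341 and 389 CPM against 117, 15 and 81.7 CPM (log2 fold change 2.23 ± 0.39, adjusted p = 9.15e-07). The type V chain Col5a2 was lower in count, at 106, 71.1 and 114 CPM against 33.3, 0 and 32.7 CPM (log2 fold change 1.99 ± 0.69, adjusted p = 0.0205). Its call was lost without replicate 2 or 3 and against Mock (adjusted p = 0.289), and the number of called fibrillar collagens was 4 without replicate 2 and 3 without replicate 3. The summed level of all 14 was 3196, 3610.5 and 3882 CPM with siWdr5, 966, 793 and 849.6 CPM with nt and 968 to 1384 CPM with Mock, 4.1 times the nt mean, and no other siRNA exceeded a mean of 1899 CPM. Against Mock 4 of the 8 were called higher and none lower.

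Basement membrane genes, which make the sheet under epithelia and around muscle, were called higher in 5 of 5 tested of 19, with a median of 2.02. Sparc, a collagen-binding protein, was at 1757, 1478 and 1860.5 CPM with siWdr5 and at 399.7, 479 and 359 CPM with nt (log2 fold change 2.06 ± 0.21, adjusted p = 2.75e-17). The type IV collagen chain Col4a1 was at 264, 270.1 and 161 CPM against 83.3, 74.8 and 40.8 CPM (log2 fold change 1.83 ± 0.43, adjusted p = 0.000373). The laminin chain Lama4, with 18 and 4 counts, had an adjusted p of 0.0347 and lost its call whichever replicate was left out and against Mock (adjusted p = 0.32). Among matricellular proteins and glycoproteins 7 of 10 tested rose (median 2.05). Besides Thbs1 these included the hyaluronan-binding proteoglycan Vcan, at 911, 668 and 712 CPM against 183, 135 and 163 CPM (log2 fold change 2.22 ± 0.28, adjusted p = 5.1e-12), the fibrillin Fbn2 (log2 fold change 2.25 ± 0.57, adjusted p = 0.00105) and the WNT-induced Wisp1 (log2 fold change 2.28 ± 0.67, adjusted p = 0.00553). Without replicate 3 the count was 3, and Wisp1 was not called. The small leucine-rich proteoglycans, which space collagen fibrils, moved less: 1 of 4 tested rose, Bgn (biglycan, log2 fold change 1.27 ± 0.35, adjusted p = 0.00292), and its call was lost without replicate 3 and against Mock (adjusted p = 0.105). The median of these 4 was 0.89, or 0.14 with Aspn, which had no count in 1 of the groups, taken at its bound from 3 counts over the group.

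Genes that act on the matrix were read in 2 lists. Of 6 tested collagen-processing genes 4 rose: the cross-linking oxidases Lox (2.66 ± 0.92, 2 counts with nt, count ratio 7.44 (95% interval 1.73 to 67)) and Loxl1 (1.65 ± 0.49), the procollagen protease enhancer Pcolce (1.46 ± 0.47) and the collagen chaperone Serpinh1 (1.01 ± 0.35). This count rested on single replicates, being 0 without replicate 1 and 1 without replicate 3. Against Mock only Loxl1 of the 4 was called (log2 fold change 2.21 ± 0.54, adjusted p = 0.000601), and adjusted p was 0.762 for Lox, 0.164 for Pcolce and 0.0604 for Serpinh1, with Lox at 0 to 115 CPM in Mock, which overlapped siWdr5. Among proteases and their inhibitors 6 of 7 tested rose and 1 fell. Timp2, an inhibitor of matrix metalloproteinases, was at 1374, 1848 and 1642 CPM with siWdr5 and at 349.7, 568 and 384 CPM with nt (log2 fold change 1.90 ± 0.21, adjusted p = 1.31e-14). Timp3 was at 304, 369.6 and 456 CPM against 66.6, 59.8 and 40.8 CPM (log2 fold change 2.83 ± 0.39, adjusted p = 7.77e-10). The stromelysin Mmp3 went the other way, at 79.2, 99.5 and 38 CPM against 216, 239 and 253 CPM (log2 fold change -1.80 ± 0.45, adjusted p = 0.000979, lost without replicate 3). Another metalloproteinase of the list, Adamts5, which cuts proteoglycans, rose with the inhibitors, at 132, 85.3 and 66.4 CPM against 16.7, 15 and 24.5 CPM (log2 fold change 2.10 ± 0.71, adjusted p = 0.0171, lost whichever replicate was left out). None of these 4 overlapped between siWdr5 and nt libraries.

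**Figure D3:**
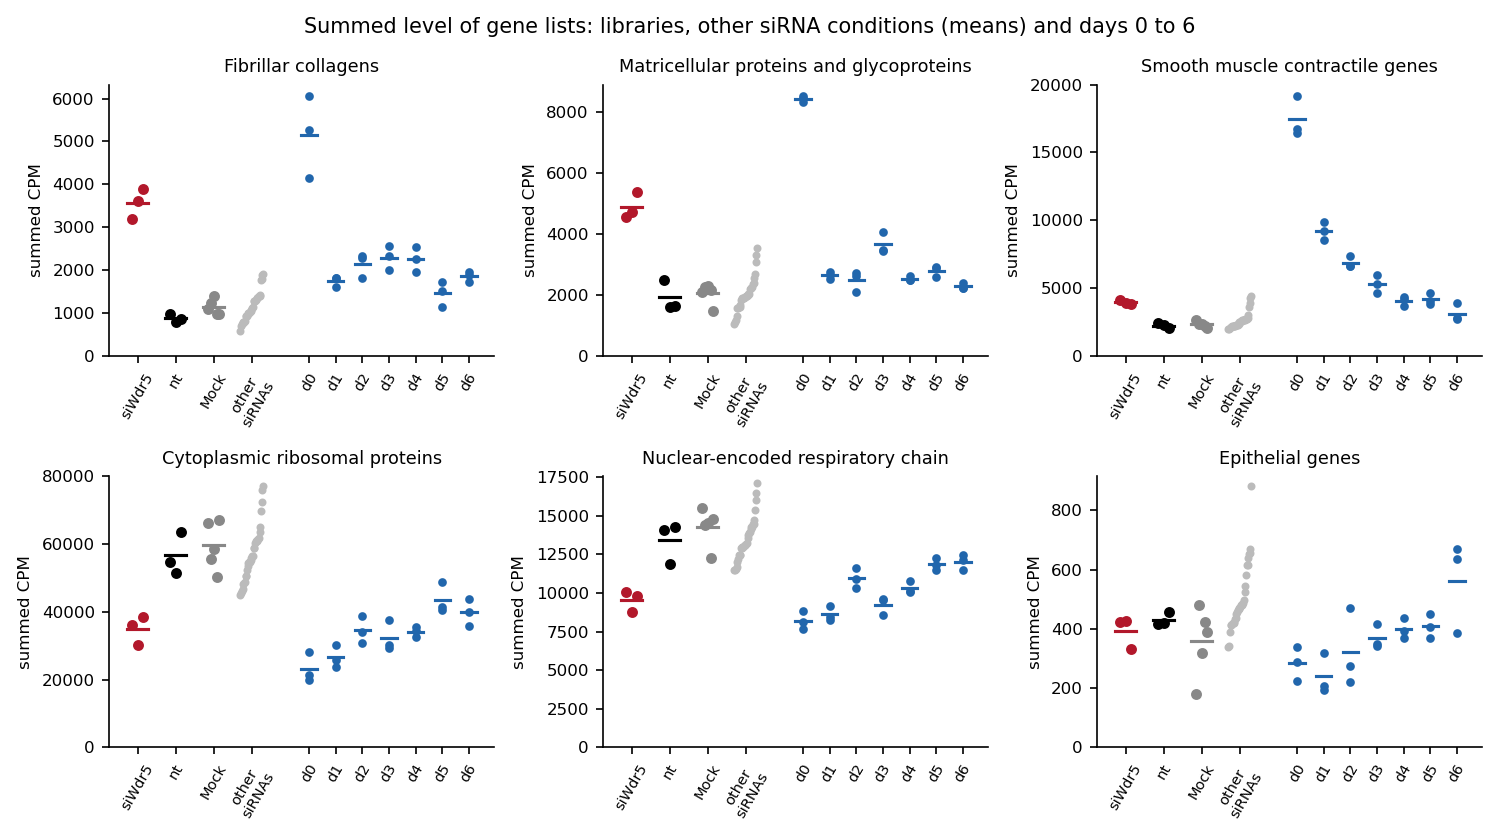
Summed level (CPM, linear axis from 0) of 6 gene groups in each siWdr5 (red), nt (black) and Mock (dark grey) library, as means of the 32 other siRNA conditions (light grey, sorted) and in each library of day 0 to day 6 (blue, d0 to d6). Short lines are group means. The siWdr5 libraries lie above all other siRNA means for fibrillar collagens and matricellular proteins, and below them for ribosomal proteins and the respiratory chain. For epithelial genes they overlap nt and Mock.

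Contractile genes of smooth muscle, which fibroblasts express as they turn into myofibroblasts, rose in 9 of 19 tested and fell in none (median 1.57, or 1.48 with Actg2 at its bound from 3 counts over the group). Cnn2, calponin 2, was at 106, 213 and 228 CPM with siWdr5 and at 33.3, 29.9 and 16.3 CPM with nt (log2 fold change 2.86 ± 0.56, adjusted p = 1.92e-05). The myosin light chain Myl9 was at 52.8, 99.5 and 57 CPM against 0, 0 and 8.17 CPM (log2 fold change 3.65 ± 0.98, adjusted p = 0.0024). The actin-binding Tagln was at 26.4, 99.5 and 38 CPM against 0, 15 and 0 CPM (log2 fold change 3.24 ± 1.11, adjusted p = 0.0186). For Myl9 and Tagln the nt libraries held 1 count in all, which gives depth-scaled count ratios of 16.9 (95% interval 2.64 to 705) and 12.9 (95% interval 1.94 to 548), and their calls were lost without replicate 2 and without replicate 2 or 3. Tagln was not called against Mock (adjusted p = 0.152), which it overlapped. The summed level of the list was 4107, 3852 and 3844 CPM with siWdr5, 2398, 2258 and 2009.7 CPM with nt and 2030.0 to 2632 CPM with Mock. Here siWdr5 was not the highest condition: siBard1 reached a mean of 4428 CPM, and on day 0 the level was 17431 CPM.

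Many contractile genes carry a CArG box, the binding motif of serum response factor, near their start. It was searched as CC, then 6 letters that are each A or T, then GG, on both strands, from 250 bases before to 50 bases after the start (RefSeq, GRCm38.p6). The 2 called genes with a box are shown with the box in capitals and 20 bases on each side.
Myl9, chr2:156775283-156775332, + strand: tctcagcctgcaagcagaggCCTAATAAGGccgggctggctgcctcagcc
Cnn2, chr10:79988524-79988573, + strand: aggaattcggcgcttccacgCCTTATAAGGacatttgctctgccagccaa
A box stood in 6 of 17 matched contractile genes (35.3%) and in 1.81% of all 27025 genes with a promoter window. It was in 2 of 8 genes called higher and in 4 of 9 not called (Myl6, Vcl, Fhl1 and Fhl2). With so few genes these counts were not compared by a test. A match is a description of letters and says nothing of binding.

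Transcription factors of mesenchymal cells and surface molecules of fibroblasts were read next. Of 10 tested mesenchymal factors 5 rose and none fell (median 1.29). The paired-type homeobox gene Prrx1, a marker of limb and mesenchymal progenitors, was at 792, 697 and 541 CPM with siWdr5 and at 183, 239 and 212 CPM with nt (log2 fold change 1.62 ± 0.26, adjusted p = 8.44e-08). Its relative Prrx2 was at 158, 227 and 237 CPM against 33.3, 15 and 73.5 CPM (log2 fold change 2.14 ± 0.45, adjusted p = 8.38e-05). Tcf4, a helix-loop-helix factor, was at 766, 526 and 645 CPM against 133, 269 and 212 CPM (log2 fold change 1.62 ± 0.27, adjusted p = 3.17e-07). All 3 separated fully from nt. Nfix rose as well (log2 fold change 2.00 ± 0.52, adjusted p = 0.00145), with an adjusted p of 0.0504 without replicate 3. Of the surface molecules 9 of 14 tested rose (6 without replicate 3; median 1.04), led by the mesenchymal cadherin Cdh11 at 304, 355 and 379.7 CPM against 99.9, 74.8 and 32.7 CPM (log2 fold change 2.47 ± 0.39, adjusted p = 6.39e-08) and the adhesion molecule Vcam1 at 357, 313 and 446 CPM against 66.6, 105 and 73.5 CPM (log2 fold change 2.21 ± 0.36, adjusted p = 2.02e-07). Ly6c1 (log2 fold change 2.19 ± 0.41, adjusted p = 6.55e-06), which has a near-identical neighbour, and podoplanin, Pdpn (log2 fold change 1.35 ± 0.32, adjusted p = 0.00057), rose too.

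Markers of cell types were read beside these groups. The 11 fibroblast markers all had counts, and their summed level was 5269.7, 5501 and 6179 CPM with siWdr5 against 3097, 2303 and 2116 CPM with nt. Fibroblasts, the labelled cell type, were thus read by their own markers. Of the other types, 6 of 11 macrophage, 5 of 8 endothelial, 5 of 9 skeletal muscle, 4 of 9 neural and glial, 5 of 7 adipocyte, 6 of 7 cartilage, 4 of 8 keratinocyte and 6 of 7 erythroid markers had no count in any siWdr5, nt or Mock library. Among them were Ptprc, Pecam1, Cdh5, Myod1, Sox10, Adipoq, Acan and Krt5, which define those types. Summed macrophage markers were at 0, 114 and 0 CPM with siWdr5 and at 16.7, 44.9 and 16.3 CPM with nt, and muscle markers at 26.4, 71.1 and 9.49 and 99.9, 15 and 32.7 CPM. Neural and glial markers were at 66, 71.1 and 123 against 117, 105 and 131 CPM, and adipocyte markers at 66, 128 and 114 against 66.6, 74.8 and 89.9 CPM. Endothelial, cartilage, keratinocyte and erythroid sums did not exceed 42.6 CPM in any siWdr5 library or 89.7 CPM in any nt library. These sums overlapped between the groups. The part of the fibroblast markers in the matrix result was not tested, and 3 of them, Col1a1, Col1a2 and Col3a1, are members of the collagen list.

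Ligands and receptors of growth-factor pathways were higher in part. In the TGF-beta and BMP pathway 6 of 10 tested genes rose and none fell (median 1.09). The ligand Tgfb2 was at 225, 185 and 237 CPM with siWdr5 and at 33.3, 59.8 and 40.8 CPM with nt (log2 fold change 2.25 ± 0.50, adjusted p = 0.000193), and Inhbb, a chain of activin, at 779, 824 and 589 CPM against 299.8, 209 and 163 CPM (log2 fold change 1.74 ± 0.26, adjusted p = 6.96e-09). Of the targets, the BMP-induced Id3 was at 251, 270.1 and 361 CPM against 0, 74.8 and 114 CPM (log2 fold change 2.08 ± 0.39, adjusted p = 8.3e-06). Tgfb2, Inhbb and Id3 lay above nt without overlap, as did 7 of the 10 tested genes of the list in all and 17.1% of all tested genes. The TGF-beta target Pmepa1 (log2 fold change 2.84 ± 1.11, adjusted p = 0.0434) rested on 1 count with nt, a count ratio of 9.92 (95% interval 1.41 to 430.4), and was lost without replicate 1 or 3 and against Mock (adjusted p = 0.289).

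In the WNT list 5 of 7 tested genes rose (3 without replicate 3; median 1.32), with the antagonist Sfrp1 in the lead. The cell cycle gene Ccnd2 was at 3579, 3596 and 2696 CPM with siWdr5 and at 1665, 1167 and 1127 CPM with nt (log2 fold change 1.32 ± 0.16, adjusted p = 4.79e-12), and the hyaluronan receptor Cd44 at 449, 455 and 598 CPM against 283, 119.6 and 310.4 CPM (log2 fold change 1.04 ± 0.25, adjusted p = 0.000677). The ligand Wnt5a (log2 fold change 1.52 ± 0.55, adjusted p = 0.0282) lost its call whichever replicate was left out and against Mock (adjusted p = 0.0519). In the IGF axis 3 of 6 tested rose (median 1.90): Igf2, the binding protein Igfbp4 (log2 fold change 2.27 ± 0.64, adjusted p = 0.00375, lost without replicate 2 or 3) and Igfbp5. Igfbp5 had 15 counts with siWdr5 and 0 with nt and Mock, so that it was at least 4.96-fold higher than nt and at least 4.17-fold higher than Mock, each bound taken from 3 counts over the group, with the siWdr5 counts as they are. With the counting error of both groups, the exact 95% interval of the ratio to nt began at 3.56. In the FGF and receptor kinase list 1 of 4 rose, Kitl, the KIT ligand (log2 fold change 1.55 ± 0.37, adjusted p = 0.000633, adjusted p 0.0579 without replicate 1).

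Of the chemokines and cytokines 4 of 8 tested rose and 2 fell (2 rose and 1 fell without the replicate block, 2 and 0 without replicate 3, 3 and 0 without replicate 1). Csf1, the growth factor of macrophages, was at 145, 242 and 218 CPM with siWdr5 and at 33.3, 59.8 and 40.8 CPM with nt (log2 fold change 2.14 ± 0.50, adjusted p = 0.000438). Cxcl12 rose (log2 fold change 1.95 ± 0.73, adjusted p = 0.0335, lost whichever replicate was left out), and Mif, the macrophage migration inhibitory factor, fell (log2 fold change -1.49 ± 0.46, adjusted p = 0.00821, lost without replicate 1 or 3). Of the imprinted genes, which are read from 1 parental copy and often steer fetal growth, 4 of 10 tested rose (2 without the block; median 1.01). Peg3 was at 251, 227 and 351 CPM against 50.0, 59.8 and 89.9 CPM (log2 fold change 1.95 ± 0.40, adjusted p = 5.8e-05), and the noncoding H19, which neighbours Igf2, at 1308, 2075 and 1187 CPM against 849, 1092 and 539 CPM (log2 fold change 0.91 ± 0.22, adjusted p = 0.000829). H19 was not called against Mock (adjusted p = 0.178), in which it ranged over 568 to 1923 CPM. The pattern of Igf2 against Mock was clearer (log2 fold change 1.64 ± 0.29, adjusted p = 1.42e-06).

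Genes of the cytosolic ribosome fell in the same libraries. Of 71 tested ribosomal protein genes 39 fell and none rose (median log2 fold change -0.67), and 64 had a negative sign. Against Mock 39 fell as well. Their summed level was 36003, 30064 and 38387 CPM with siWdr5, 54755, 51583 and 63631 CPM with nt and 50319 to 67155 CPM with Mock, or 0.615 times the nt mean, and the lowest of the other siRNA conditions was at 44896 CPM. In untransfected cells the mean was 23110 CPM on day 0, 43605 CPM on day 5 and 39912 CPM on day 6. The siWdr5 libraries thus lay within the range of the day means, and every nt and Mock library lay above it. The largest falls were in Rps14, at 568, 369.6 and 456 CPM against 1632, 1211 and 1291 CPM (log2 fold change -1.56 ± 0.19, adjusted p = 4.88e-12), and Rpl26, at 198, 242 and 294 CPM against 666, 583 and 735 CPM (log2 fold change -1.42 ± 0.24, adjusted p = 7.6e-07). In both, the siWdr5 libraries lay under all nt and all Mock libraries. Rps3a1 fell as well (log2 fold change -1.19 ± 0.20, adjusted p = 3.55e-07), and so did Rps19 (log2 fold change -1.17 ± 0.32, adjusted p = 0.00285, lost without replicate 3). The count of 39 depended on the processing: 29, 25 and 13 without replicates 1, 2 and 3, 19 without the replicate block, 25 with other size factors, 24 with DESeq2, 23 without the filter and 4 with limma on the deposited log2 values. The median stayed between -0.74 and -0.49 in all of these.

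Ribosomal protein transcripts are known to open with a run of C and T, the TOP motif, through which their translation is held back when nutrients are scarce. The first 30 bases of 3 of them (GENCODE vM21, GRCm38) are shown, with the run in capitals.
Rplp1, chr9:61914513-61914542, - strand: gaTCTTTTCCTCagctgccgccaaggtgct
Rpl4, chr9:64173375-64173404, + strand: CTTTTCCTgtgggagcagccgggtagagag
Rpl8, chr15:76904078-76904107, + strand: ctaTTTCCTCTTTCggccttgcttgccggc
A run of at least 6 such bases that began within the first 5 was found in 31 of 71 tested ribosomal protein genes (43.7%), in 19.9% of the other tested coding genes and in 16.9% of all coding genes. It was in 16 of the 39 that fell (41.0%) and in 15 of the 32 that were not called (46.9%). Other genes called lower had it in 15.1% and genes called higher in 23.7%. The share was higher in the family than in the other genes, without a test, and similar in members that fell and members not called. Annotated starts can lie off the true start by some bases, which limits this count.

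Processed copies of ribosomal protein genes were counted too. Of 278 symbols of such pseudogenes 120 were tested, of which 42 fell and none rose (median -0.71), with a summed mean of 24713 ± 3862 CPM with siWdr5 against 41889 ± 7623 CPM with nt (SD, n = 3). Over all genes, 161 of the 454 called lower (35.5%) were annotated pseudogenes, against 6 of the 367 called higher, out of 481 pseudogenes tested. Reads of a parent gene and its near-identical copies can be shared out between them, so the values of single ribosomal protein genes such as Rps3a1 (7 copies) and Rpl26 (5 copies) are uncertain.

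Counts of ribosome assembly genes and translation factors stand beside shares of 12.2% higher and 15.1% lower over all tested genes, which those of the translation factors were close to. In ribosome biogenesis 6 of 31 tested genes fell and none rose (median -0.49). Npm1, nucleophosmin, the most abundant nucleolar chaperone of this list (chr11:33152287-33163206, - strand), was at 2404, 2018 and 2231 CPM with siWdr5, at 5729, 5997 and 6977 CPM with nt and at 4958 to 7120.0 CPM with Mock (log2 fold change -1.49 ± 0.14, adjusted p = 4.45e-18 against nt). Every siWdr5 library lay below every nt and Mock library. Of the small H/ACA particle that guides ribosomal RNA modification, Nop10 (log2 fold change -1.80 ± 0.47, adjusted p = 0.00162) and Nhp2 (log2 fold change -1.07 ± 0.28, adjusted p = 0.00177; not called against Mock, adjusted p = 0.229) fell, and so did the biogenesis factor Nip7 (log2 fold change -1.78 ± 0.58, adjusted p = 0.0136), but none of these 3 was called without replicate 3, when the count for the list was 1. Of the translation factors 5 of 43 were called higher and 7 lower (6 and 4 with the size factors of DESeq2, 2 and 4 without replicate 2, 2 and 3 without replicate 3, 2 higher without the block; median -0.13, which turns to 0.04 with those size factors). Pabpc1, the poly(A)-binding protein, rose (log2 fold change 1.22 ± 0.26, adjusted p = 0.000106, lost without replicate 3), as did Eif3f (log2 fold change 1.60 ± 0.60, adjusted p = 0.0341, lost without replicate 2 or 3), which rested on 8 counts with nt and was not called against Mock (adjusted p = 0.248). Naca, a chaperone of nascent chains, was at 449, 355 and 626 CPM against 1182, 912 and 1234 CPM (log2 fold change -1.19 ± 0.19, adjusted p = 1.11e-07), and the initiation factor subunit Eif3e fell as well (log2 fold change -1.57 ± 0.38, adjusted p = 0.000768). Of 11 tested genes in a list of nuclear noncoding RNAs and snoRNA hosts, 3 fell, all hosts, which carry guides for ribosomal RNA: Snhg1 (log2 fold change -1.10 ± 0.22, adjusted p = 4.32e-05), Snhg5 (log2 fold change -1.06 ± 0.32, adjusted p = 0.00764, lost without replicate 1) and Gas5 (log2 fold change -1.17 ± 0.42, adjusted p = 0.0283, lost without replicate 2 or 3 and against Mock, adjusted p = 0.449).

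Nuclear genes for mitochondrial proteins were read in 2 lists. Of 50 tested subunits of the respiratory chain 15 fell and none rose (median -0.52), with 9 and 3 falls without replicates 1 and 3, 6 without the filter on low counts, 9 with DESeq2 and none by limma on the deposited log2 values. Uqcrh of complex III was at 581, 299 and 389 CPM with siWdr5 and at 1232, 852 and 866 CPM with nt (log2 fold change -1.20 ± 0.23, adjusted p = 7.17e-06). Ndufv2 of complex I was at 92.5, 99.5 and 104 CPM against 416, 299 and 172 CPM (log2 fold change -1.45 ± 0.37, adjusted p = 0.00146, adjusted p 0.0569 without replicate 1). Atp5j2 of the ATP synthase was at 172, 114 and 104 CPM against 316, 314 and 335 CPM (log2 fold change -1.33 ± 0.32, adjusted p = 0.000569, adjusted p 0.0595 without replicate 3). Each of the 3 was apart from nt. Their summed level over the list was 10064, 8742 and 9777 CPM against 14072, 11860 and 14296 CPM, and siWdr5 was the lowest of the 35 transfected conditions. In the mitochondrial ribosome and import list 9 of 34 tested fell (median -0.51), with Mrpl47 (log2 fold change -1.88 ± 0.61, adjusted p = 0.013) and Mrps14 (log2 fold change -1.67 ± 0.50, adjusted p = 0.00727) next to Mrps22, but 5 fell without replicate 1 or 2, 1 without the filter and none without replicate 3 or by limma.

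The transcripts encoded by mitochondrial DNA itself were divided. Of 15, 2 rose and 6 fell (median -0.17, 0.02 with the size factors of DESeq2). mt-Co1, subunit 1 of cytochrome oxidase, was at 35065, 38208 and 25145 CPM with siWdr5 and at 22248, 24737 and 14182 CPM with nt (log2 fold change 0.70 ± 0.13, adjusted p = 2.79e-06), and rose against Mock as well (log2 fold change 0.60 ± 0.11, adjusted p = 5.19e-06). mt-Co2, subunit 2 of the same enzyme, was at 608, 654 and 769 CPM against 1399, 1077 and 1291 CPM (log2 fold change -0.88 ± 0.18, adjusted p = 5.59e-05), and fell against Mock (log2 fold change -1.25 ± 0.17, adjusted p = 2.92e-10). So 2 subunits of 1 enzyme, read from the same strand of the same genome, moved apart, and nuclear copies of mitochondrial sequence could share reads with both. mt-Nd4l rose against nt (log2 fold change 0.97 ± 0.22, adjusted p = 0.000278) and not against Mock (log2 fold change -0.05, adjusted p = 0.883), and it overlaps mt-Nd4.

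Of the genes of energy metabolism, those of glycolysis are given first. In glycolysis 4 of 12 tested genes fell and none rose (median -0.38). Pgk1, phosphoglycerate kinase 1, was at 634, 782 and 446 CPM with siWdr5 and at 1565, 2273 and 2026 CPM with nt (log2 fold change -1.68 ± 0.20, adjusted p = 1.84e-13). Tpi1, triosephosphate isomerase, was at 79.2, 142 and 199 CPM against 466, 389 and 523 CPM (log2 fold change -1.67 ± 0.29, adjusted p = 9.59e-07). Ldha, lactate dehydrogenase A, was at 555, 540.1 and 569.5 CPM against 866, 1032 and 988 CPM (log2 fold change -0.79 ± 0.20, adjusted p = 0.000853). For these 3 the siWdr5 libraries lay under all nt and all Mock libraries. Gapdh fell against nt (log2 fold change -1.23 ± 0.34, adjusted p = 0.00275, adjusted p 0.0567 without replicate 1) but was not called against Mock (adjusted p = 0.109), and it has 4 close copies. Of the low-oxygen genes Bnip3 and Higd1a fell and the vasodilator peptide Adm rose (log2 fold change 2.08 ± 0.78, adjusted p = 0.0335, lost whichever replicate was left out), in 4 tested. Adm overlapped between siWdr5 and nt and was not called against Mock (adjusted p = 0.421), and neither was Higd1a (adjusted p = 0.0881).

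The metabolic genes linked to MYC showed 6 falls in 17 tested (median -0.59), but 3 without replicate 2 and 1 without replicate 3. There were 2 falls without the replicate block, 2 with the size factors of DESeq2 and 2 with DESeq2 itself. Nme1, a nucleoside diphosphate kinase, was at 515, 412 and 589 CPM with siWdr5 and at 883, 718 and 939 CPM with nt (log2 fold change -0.73 ± 0.21, adjusted p = 0.00404, adjusted p 0.0558 without replicate 3), and Prps1 of nucleotide synthesis fell as well (log2 fold change -1.04 ± 0.40, adjusted p = 0.0402, lost without replicate 1 or 3 and against Mock, adjusted p = 0.485). The median of this list against Mock was 0.10, of opposite sign. Sterol synthesis had 2 falls in 15 tested, Idi1 and Msmo1 (log2 fold change -1.08 ± 0.31, adjusted p = 0.00521, lost without replicate 3 and against Mock, adjusted p = 0.0776). The amino acid and ATF4 list had 2 in 19, Cth of cysteine synthesis (log2 fold change -1.98 ± 0.64, adjusted p = 0.0131, lost without replicate 3) and the stress-induced Nupr1 (log2 fold change -2.30 ± 0.82, adjusted p = 0.0255, 3 counts with siWdr5, count ratio 0.175 (95% interval 0.0329 to 0.605), lost without replicate 2 or 3 and against Mock, adjusted p = 0.105). Both shares are under the 15.1% of all tested genes that were lower.

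Genes of protein folding were read by compartment. In the endoplasmic reticulum 4 of 13 tested chaperones rose and none fell (median 0.46), with 5 of the 13 of negative sign. Hspa5 (BiP) was at 977, 1251 and 731 CPM with siWdr5 and at 616, 508 and 441 CPM with nt (log2 fold change 0.90 ± 0.20, adjusted p = 0.000143), and the lectin chaperone Calr at 515, 355 and 494 CPM against 249.8, 269 and 114 CPM (log2 fold change 1.23 ± 0.27, adjusted p = 0.000176, lost without replicate 3, when 1 of the list was called). Of the heat shock proteins 1 of 24 rose and 5 fell (2 fell without replicate 2 or replicate 3, and 2 rose and 3 fell with the size factors of DESeq2). Over all tested genes 12.2% were higher and 15.1% lower. The cytosolic Hsp90aa1 was at 4623, 4065 and 3645 CPM against 11191, 9362 and 9738 CPM (log2 fold change -1.30 ± 0.13, adjusted p = 2.54e-16). Subunits of the chaperonin that folds actin and tubulin, Cct5 (log2 fold change -1.09 ± 0.28, adjusted p = 0.00135), Cct4 (log2 fold change -0.77 ± 0.29, adjusted p = 0.0369) and Cct8 (log2 fold change -0.74 ± 0.20, adjusted p = 0.00196), fell against nt but were not called against Mock (adjusted p = 0.498, 0.958 and 0.79). The siWdr5 libraries lay above all nt libraries for Hspa5 and Calr and below them for Hsp90aa1.

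Breakdown of proteins is carried out by the lysosome and the proteasome. The counts of this paragraph stand beside 12.2% of all tested genes called higher and 15.1% called lower. In the lysosome 6 of 20 tested genes rose and none fell (median 0.52), and 10 rose with the size factors of DESeq2. The protease Ctsb was at 951, 1620.5 and 864 CPM with siWdr5 and at 399.7, 568 and 392 CPM with nt (log2 fold change 1.30 ± 0.21, adjusted p = 7.38e-08). Ctsd (log2 fold change 0.90 ± 0.23, adjusted p = 0.00118) and the saposin precursor Psap (log2 fold change 1.86 ± 0.50, adjusted p = 0.00243) rose as well, but without replicate 3, when 1 of the list was called, neither was, and Psap was not called against Mock (adjusted p = 0.249). In the proteasome 6 of 25 tested fell and none rose (median -0.19, or -0.01 with the size factors of DESeq2), and 3 fell without replicate 2 or 3. The core subunit Psma1 was at 264, 256 and 361 CPM against 666, 793 and 858 CPM (log2 fold change -1.38 ± 0.23, adjusted p = 4.12e-07), and Psma4 at 502, 369.6 and 399 CPM against 833, 763 and 899 CPM (log2 fold change -0.98 ± 0.21, adjusted p = 8.98e-05). Among antioxidant genes 2 of 29 rose and 2 fell, both under the shares of all tested genes (3 rose and 1 fell with the size factors of DESeq2, and 1 fell without replicate 1 or 3). The peroxiredoxin Prdx1 was at 779, 839 and 873 CPM against 1898, 1809.7 and 2867 CPM (log2 fold change -1.40 ± 0.18, adjusted p = 6.19e-12). The glutathione peroxidase Gpx1 was higher (log2 fold change 1.33 ± 0.39, adjusted p = 0.00544, not called against Mock, adjusted p = 0.142). Iron genes moved in opposite directions: the transferrin receptor Tfrc was at 647, 369.6 and 361 CPM against 966, 1346 and 1127 CPM (log2 fold change -1.33 ± 0.20, adjusted p = 2.87e-08), and the ferritin chain Fth1 at 2219, 2416 and 2183 CPM against 1782, 972 and 1249.9 CPM (log2 fold change 0.78 ± 0.16, adjusted p = 7.62e-05). In the list of metallothioneins and metal handling, 1 of 6 tested rose (Fth1) and 2 fell (Tfrc and the metallothionein Mt2, log2 fold change -1.18 ± 0.20, adjusted p = 4.75e-07).

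The cytoskeleton list had 9 rises and 1 fall in 25 tested (median 0.41, 4 rises without replicate 3), against 12.2% higher and 15.1% lower over all tested genes. Its summed mean was 11901 CPM with siWdr5, 7341 CPM with nt and 11861.5 CPM in untransfected cells of day 6. Actb was at 2813, 3156 and 3151 CPM with siWdr5 and at 1532, 1406 and 882 CPM with nt (log2 fold change 1.31 ± 0.17, adjusted p = 1.23e-10), and the neuronal-type microtubule protein Map1b at 251, 299 and 218 CPM against 99.9, 119.6 and 57.2 CPM (log2 fold change 1.52 ± 0.38, adjusted p = 0.00098). The actin-sequestering peptide Tmsb4x fell (log2 fold change -1.38 ± 0.30, adjusted p = 0.00011, adjusted p 0.0584 without replicate 3). Both tested intermediate filament genes rose, Vim at 1241, 1308 and 1253 CPM against 716, 658 and 515 CPM (log2 fold change 1.04 ± 0.19, adjusted p = 2.94e-06) and Lmna (log2 fold change 1.09 ± 0.34, adjusted p = 0.00919, lost without replicate 1 or 3). Of the annexin, S100 and galectin list 1 of 14 rose (3 with the size factors of DESeq2), a share under that of all tested genes. It was the giant membrane scaffold Ahnak (log2 fold change 1.95 ± 0.31, adjusted p = 1.13e-07). Of the interferon-stimulated genes 2 of 4 rose, Ifitm3 (log2 fold change 0.78 ± 0.25, adjusted p = 0.0107, lost without replicate 3) and B2m (log2 fold change 1.14 ± 0.43, adjusted p = 0.0368, lost without replicate 1 or 2), and of the immediate early and stress genes 1 of 11, Zfp36l1 (log2 fold change 2.61 ± 0.55, adjusted p = 7.02e-05, against Mock adjusted p = 0.0577). The last share, too, is under the 12.2% of all tested genes called higher.

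WDR5 acts on chromatin, and genes of chromatin and RNA processing were read as groups. Of its own complexes 4 of 28 genes were tested and 1 fell, Dpy30, the subunit that joins WDR5 in the core of the H3K4 methylases, at 106, 56.9 and 94.9 CPM with siWdr5 and 149.9, 194 and 294 CPM with nt (log2 fold change -1.33 ± 0.39, adjusted p = 0.00591). It fell against Mock too (log2 fold change -1.51 ± 0.39, adjusted p = 0.00132), but had an adjusted p of 0.232 against nt without replicate 3. Of 10 tested histone and high-mobility-group genes 4 fell and 1 rose (2 fell without replicate 2; median -0.83). The variant H2afz was at 1215, 853 and 911 CPM against 2048, 2124 and 2165 CPM (log2 fold change -1.09 ± 0.17, adjusted p = 1.01e-07), and Hmgb2, which is high in dividing cells, at 106, 71.1 and 85.4 CPM against 299.8, 299 and 261 CPM (log2 fold change -1.67 ± 0.37, adjusted p = 0.00018). Both were apart from every nt and Mock library. Hist1h2ap fell (log2 fold change -1.32 ± 0.39, adjusted p = 0.00678, lost without replicate 2 or 3), with 13 near-identical copies in the genome. Of 26 tested remodellers and repressors 2 rose, Chd4 (log2 fold change 1.66 ± 0.45, adjusted p = 0.00274, lost without replicate 3 and against Mock, adjusted p = 0.15) and Smarcc1 (log2 fold change 1.14 ± 0.37, adjusted p = 0.014, lost without replicate 1 or 3). Splicing factors had 5 rises and 5 falls in 45 tested (3, 2 and 1 rises without replicates 1, 2 and 3, and 2 without the block, and 8 rises and 4 falls with the size factors of DESeq2), against 12.2% higher and 15.1% lower over all tested genes, with the SR protein Srsf3 at 832, 881 and 598 CPM against 1799, 1944 and 1585 CPM (log2 fold change -1.22 ± 0.17, adjusted p = 2.1e-09), Snrpd1 also lower (log2 fold change -1.29 ± 0.24, adjusted p = 7.03e-06) and Sf3b2 higher (log2 fold change 1.12 ± 0.34, adjusted p = 0.00811, lost without replicate 1 or 3 and against Mock, adjusted p = 0.21).

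Calls in cell cycle and damage genes were few in number and are to be read beside the 12.2% of all tested genes called higher and the 15.1% called lower. In the S phase list 3 of 13 tested fell and none rose: Dut, which keeps uracil out of DNA, at 251, 299 and 266 CPM with siWdr5 and 716, 808 and 441 CPM with nt (log2 fold change -1.20 ± 0.24, adjusted p = 3.26e-05), Nasp (log2 fold change -1.29 ± 0.36, adjusted p = 0.0035) and Pcna (log2 fold change -0.76 ± 0.31, adjusted p = 0.0493). Without replicate 2 or 3 Dut alone was called, and against Mock none of the 3 (adjusted p = 0.075, 0.0577 and 0.0905). In mitosis 1 of 29 rose and 3 fell, none of them called without replicate 2 and 1 of the falls without replicate 3: Pttg1 (securin, log2 fold change -1.79 ± 0.58, adjusted p = 0.0132), Kif20b (log2 fold change -1.34 ± 0.36, adjusted p = 0.00243), Smc2 (log2 fold change -0.71 ± 0.24, adjusted p = 0.0191) and, higher, Cenpe (log2 fold change 0.96 ± 0.38, adjusted p = 0.0431, lost without replicate 1 as well). Against Mock none of these 4 was called (adjusted p = 0.165, 0.243, 0.615 and 0.0584). Of 39 genes of homologous recombination and repair 4 were tested and 1 fell, the checkpoint kinase Chek1 (log2 fold change -1.37 ± 0.51, adjusted p = 0.0318, lost without replicate 2 or 3 and with the size factors of DESeq2). The summed level of that list was 1215, 924 and 902 CPM against 1432, 1585 and 1291 CPM and 1089.7 to 1441 CPM with Mock, lower with siWdr5 than in any nt library.

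Of 14 tested p53 targets 3 rose and 2 fell, to be read beside 12.2% higher and 15.1% lower over all tested genes. The rises were 1 without replicate 2, and the falls were 0 without replicate 1 or 3 and with the size factors of DESeq2, and 1 without replicate 2. Cdkn1a, the p21 inhibitor of the cell cycle, was at 792, 952 and 636 CPM with siWdr5 and at 383, 404 and 343 CPM with nt (log2 fold change 1.05 ± 0.22, adjusted p = 0.000102), but at 254 to 799.9 CPM with Mock, where it was not called (adjusted p = 0.0966). Mdm2, the ligase that removes p53, was at 251, 284 and 294 CPM against 66.6, 165 and 188 CPM (log2 fold change 0.88 ± 0.33, adjusted p = 0.0342) and called against Mock too (log2 fold change 1.26 ± 0.36, adjusted p = 0.00376), although against nt the call was lost whichever replicate was left out. Zmat3 rose (log2 fold change 1.14 ± 0.37, adjusted p = 0.0139, lost without replicate 2 or 3 and against Mock, adjusted p = 0.079) and Rps27l fell (log2 fold change -0.97 ± 0.35, adjusted p = 0.0249, lost whichever replicate was left out).

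Epithelial and pluripotency genes, which reprogramming is meant to raise, were mostly too low to test. Of 35 epithelial genes 1 passed the filter, Perp of the desmosome, at 225, 156 and 66.4 CPM with siWdr5 and 117, 135 and 139 CPM with nt (log2 fold change 0.12 ± 0.39, adjusted p = 0.852). Its groups overlapped. The summed level of all 35 was 423, 426 and 332 CPM with siWdr5, 416, 419 and 457 CPM with nt and 181 to 481 CPM with Mock, and the mean of siWdr5 ranked 31 of 35 from the highest. Of 33 pluripotency genes 2 were tested and L1td1, an RNA-binding protein of stem cells, fell, at 0, 28.4 and 19 CPM against 50.0, 135 and 73.5 CPM (log2 fold change -2.29 ± 0.78, adjusted p = 0.0188, lost whichever replicate was left out). The summed level of that list was 330.2, 426 and 513 CPM against 699, 553 and 400.3 CPM, which overlap. The 11 stem cell markers summed to 26.4, 85.3 and 47.5 CPM against 283, 105 and 81.7 CPM, with 1 siWdr5 library above the lowest nt library. Of these markers, Zfp42 and Lin28a had no count in any of the 3 groups. Sall4 had 1 count with siWdr5 and 7 with nt, Epcam 1 and 8, and Cdh1 7 and 4, too few for a statement on these genes.

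Fold changes ran with transcript length. Over the 2965 tested genes with a length in GENCODE vM21, split into 4 bins of equal size, the median log2 fold change of siWdr5 against nt was -0.57, -0.18, 0.21 and 0.56 from the shortest to the longest bin. In the shortest bin 34 genes were called higher and 220 lower, and in the longest 158 and 30. Each replicate showed this, with medians of -0.37, -0.36 and -0.52 in the shortest and 0.44, 0.36 and 0.50 in the longest bin. Coding genes other than ribosomal protein genes, binned in the same way, had medians of -0.13, -0.02, 0.35 and 0.65. To set all conditions on 1 reference, each gene was also taken against its mean over the 35 transfected conditions. The difference of longest minus shortest bin was then 0.80 for siWdr5, the largest of these conditions and ahead of siEp300 (0.39) and siBard1 (0.30), with -0.07 for nt and -0.14 for Mock. These are medians over genes that share libraries and carry no test.

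The medians of the gene groups were also set against genes of like length. After the median of their own bin among 10 bins of length was taken off, fibrillar collagens (median length 4704.5 bases) kept a median of 1.40, contractile genes (1430.5 bases) 1.60 and basement membrane genes (1335 bases) 1.87. Ribosomal proteins (723.5 bases) kept -0.35 of -0.67, and ribosome biogenesis genes (1273 bases) kept -0.49. The respiratory chain (635 bases) was left with -0.16 of -0.52, and the proteasome with -0.03. Mitosis genes (2483 bases) went from -0.07 (0.10 with the size factors of DESeq2) to -0.52. These bins hold all tested genes with a length, ribosomal protein genes and pseudogenes among them, and the shortest of 4 bins of other coding genes had a median of -0.13, against -0.52 in the respiratory chain. The values left are a description with no test. The part of transcript length or RNA quality in the lower levels was not tested.

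**Figure D4:**
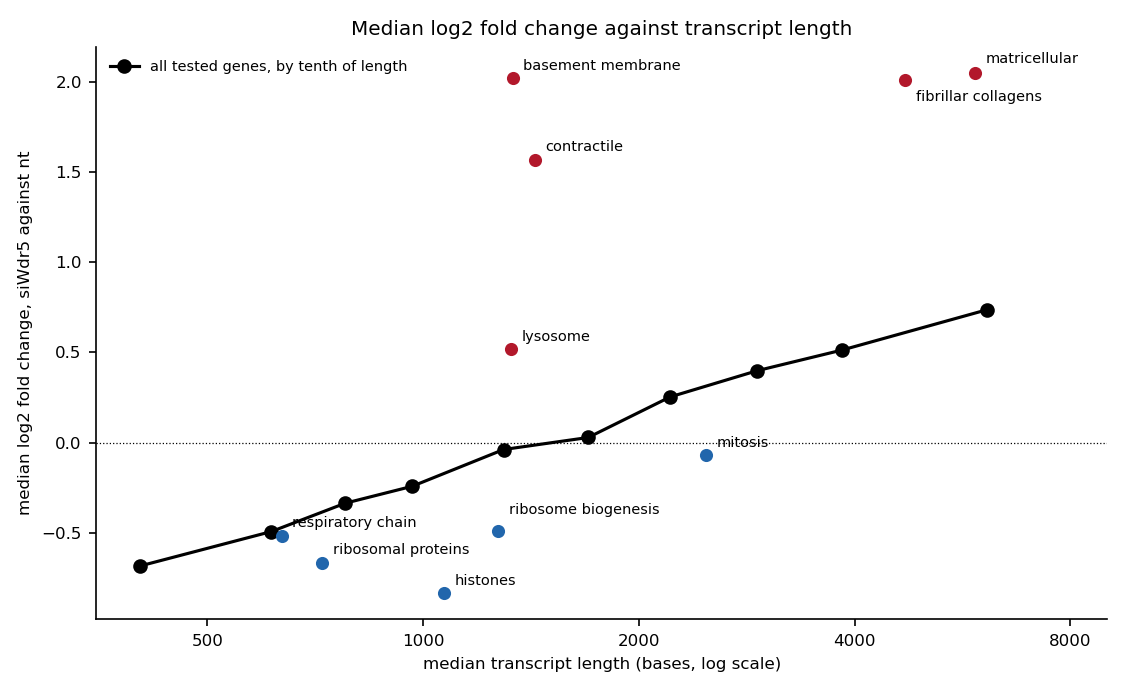
Median log2 fold change of siWdr5 against nt (y axis) by median transcript length in bases (x axis, log scale). The black line joins the medians of 10 equal bins of all tested genes with a length, and points are gene groups, red above 0 and blue below. The bins climb with length, the contractile and basement membrane genes lie far above the line near the middle of the axis, and the respiratory chain lies close to it.

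The time course of untransfected cells gives the direction in which the same genes moved between day 0 and day 6. Its libraries are none of the siWdr5, nt and Mock libraries, but all entered 1 fit and share its estimate of spread. By the same edgeR test 668 genes (22.2%) were called, of which 321 (10.7%) were higher and 347 (11.5%) lower on day 6 than on day 0 (229 and 431 in Day06 against Day00 with the size factors of DESeq2, and 329 genes in all without replicate 3). Of the 367 genes higher with siWdr5, 126 (34.3%) fell over these days and 19 (5.18%) rose. Among the 454 lower with siWdr5, 120 (26.4%) rose and 9 (1.98%) fell. Of the 2192 genes not called with siWdr5, 212 (9.67%) fell and 182 (8.30%) rose. The median log2 change from day 0 to day 6 was -0.60 for the genes higher with siWdr5, 0.56 for those lower and 0.02 for the rest. By sign alone, 276 of the 367 were lower on day 6 and 363 of the 454 were higher. The change from day 0 to day 6 also ran with transcript length, with medians of 0.36, 0.07, -0.04 and -0.22 from the shortest to the longest of the 4 bins, opposite in order to those of siWdr5 against nt, and the part of length in these counts was not tested.

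Single genes are given with their levels on both days. Thbs1 went from 3704 CPM on day 0 to 641 CPM on day 6 (log2 fold change -2.57 ± 0.20, adjusted p = 4.1e-27), and Col1a1 from 1327 to 458 CPM (log2 fold change -1.58 ± 0.23, adjusted p = 1.37e-09). Npm1 rose from 792 to 2033 CPM (log2 fold change 1.35 ± 0.17, adjusted p = 2.9e-11), a level close to that of the siWdr5 libraries and far under nt. Contractile genes fell in 18 of 19 tested over the time course (median -2.65), against 11.5% of all tested genes. Some of them, such as Tagln (323 CPM on day 0 and 6.02 CPM on day 6), may have passed the filter through the early days. For these a fall was in part set by the filter, so the count is a description only. Ribosomal protein genes rose in 27 of 71 (median 0.62), against 10.7% of all tested genes. Some genes did not move opposite to siWdr5 over the time course. Sfrp1 rose over the time course, from 89.8 to 696 CPM (log2 fold change 2.93 ± 0.33, adjusted p = 3.68e-14), and was higher in each siWdr5 library than the mean of any day from 0 to 6. Inhbb (log2 fold change 3.63 ± 0.45, adjusted p = 3.86e-12), Ccnd2 (log2 fold change 1.14 ± 0.17, adjusted p = 5.6e-09) and Kitl (log2 fold change 2.40 ± 0.72, adjusted p = 0.00719) rose in both as well. Bnip3, the largest of the named falls, did not pass the test over time (log2 fold change 0.15 ± 0.57, adjusted p = 0.898), at 61.4 CPM on day 0 and 65.5 CPM on day 6, both under its level in nt.

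**Figure D5:**
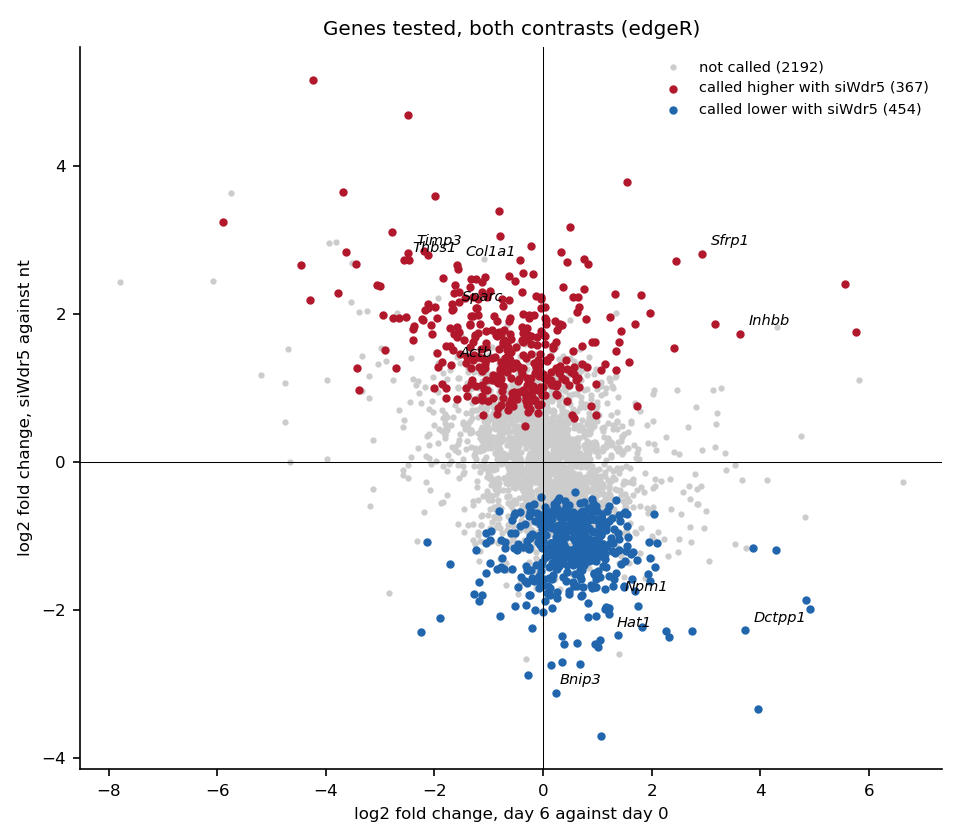
Log2 fold change of siWdr5 against nt (y axis) against that of day 6 over day 0 in untransfected cells (x axis) for all 3013 tested genes. Red points are the 367 genes called higher with siWdr5, blue points the 454 called lower and grey points the rest. Most red points lie left of 0 and most blue points right of 0, with Sfrp1 and Inhbb among the red points on the right.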

How the data were processed

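RNA was profiled with CEL-Seq2, a barcoded 3′-end method with unique molecular identifiers. The deposited counts are those the authors made by mapping reads to mm10 with Bowtie2, with GENCODE vM13 genes and identifier correction in the CEL-Seq2 pipeline. Whether counting used strand is not given in the sources used here. The deposited log2 values are log2 CPM that the authors scaled by size factors and from which they regressed the batch.

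Counts of 127 of 129 libraries entered the fit. The others held 6403 and 7981 counts, under a minimum of 10000. Groups were read from column names. Genes were kept with filterByExpr (minimum count 10, by condition), scaled by TMM and fitted with edgeR 4.0.16 in R 4.3.3 by quasi-likelihood, with terms for condition and replicate number (83 residual degrees of freedom), and p-values were adjusted by Benjamini-Hochberg over all 3013 tested genes. Adjusted p-values in the text come from this fit unless another tool is named, and errors of log2 fold changes are standard errors. The test was checked on simulated counts.

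The replicate number is a sequencing pool, shared by all conditions. Deviations from group means correlated by 0.0036, 0.11 and 0.21 between siWdr5 and nt libraries of the same number, and by -0.16 to 0.04 between others. No siWdr5 or nt library was a copy of another of its group: the chi-square per gene between replicates was 1.68 to 2.03 for siWdr5 and 1.58 to 2.41 for nt, above the value of 1 that sampling alone gives.

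Gene groups (48 lists, and 10 lists of cell type markers) and members were chosen with earlier results of these data known, and carry no test of their own. Named genes were Wdr5, Brca1 and Bard1, then up to 12 per direction with the largest called fold change at 100 CPM or more in the higher group, 5 or more counts in each group and the same sign in every replicate and against Mock (predicted genes and pseudogenes left out), and in each list up to 4 called members with the largest fold change. Where no member was called, up to 2 of the highest CPM were given as values. Sall4, Epcam, Cdh1, Zfp42 and Lin28a, and the markers at 0, were named after their counts were seen. Alternatives were RLE scaling, DESeq2 1.42.0, other filters, no replicate block, only the libraries compared, leaving out each replicate, nt and Mock as 1 control, limma 3.58.1 on the deposited log2 values and, chosen after seeing the data, scaling without ribosomal protein and mitochondrially encoded genes. Positions and transcript lengths are from GENCODE vM21 (GRCm38), and promoter windows from RefSeq. Intervals (95%, exact Poisson) cover counting error only.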

Additional observations from a re-analysis of the deposited data

Results flagged for a closer look

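The summed level of matricellular proteins in the 5 Mock libraries had 1 library far from the others. The lowest stood at 1463 CPM against a median of 2160 CPM and a highest of 2306 CPM, a gap of 0.744 of the whole range. It was the only 1 of 8 summed levels checked in Mock that stood out in this way, and chance alone flags about 1 in 20. All 3 siWdr5 libraries, at 4556, 4733 and 5373 CPM, lay above the highest of the Mock libraries.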

How the results depend on the processing

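The count of called genes depended most on replicate 3, on the filter and on the values tested. In siWdr5 against nt, 821 genes were called, 321 to 657 when 1 replicate was left out (in each comparison the lowest count came without replicate 3), 394 without the filter on low counts (182 higher and 212 lower) and 137 by limma on the deposited log2 values. In siWdr5 against Mock, 819 genes were called, 454 to 629 with a replicate left out, 434 without the filter and 66 by limma. In siWdr5 against the other siRNAs the count of 1153 went to 674 to 1021 and, by limma, to 225. For Day06 against Day00 the count of 668 went to 329 to 544 and, without the filter, to 430. The cause was not tested, except that leaving out a replicate leaves fewer libraries. RLE scaling and DESeq2 kept the counts within 1.5 times but moved all fold changes of siWdr5 against nt up by 0.17 and 0.18 (log2), with 490 higher and 315 lower under RLE scaling and 444 and 285 with DESeq2. The share of higher calls went from 43.0 to 53.8% against Mock and from 54.7 to 66.4% against the other siRNAs, and fell from 48.1 to 34.7% in the time course, where fold changes moved by -0.16. A minimum count of 3 turned the share to 54.4% against Mock and to 70.7% of 1644 calls against the other siRNAs, and no filter to 53.9% and to 80.8% of 1601.

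The fit without the replicate block called 559 genes in siWdr5 against nt (266 higher and 293 lower), 605 in siWdr5 against Mock, 937 in siWdr5 against the other siRNAs and 486 in Day06 against Day00. Taking nt and Mock libraries as 1 control gave 1010 called genes, and with scaling chosen after seeing the data, without ribosomal protein and mitochondrially encoded genes, 831 were called. Of 162 called genes named by the rule, none changed sign under these alternatives, 80 stayed called whichever replicate was left out, and 34, 38 and 69 lost their call without replicate 1, 2 and 3, 112 by limma and 59 without the filter. Summed levels of 58 lists moved by more than the spread between replicates in 24 with RLE scaling and in 38 with total counts. Depth limits the low genes, Wdr5 among them, which were not tested.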
